A study of Mus musculus with 12 samples.

Results

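The translation initiation complex eIF4F was followed in mouse leukaemia cells through 9 genes of its subunits, their relatives and its helicase cofactors. Some of the cells were treated with 4EGI-1, a small molecule that keeps the cap-binding protein eIF4E from binding the scaffold protein eIF4G. The genes were the cap-binding family (Eif4e, Eif4e2, Eif4e3), relatives of the scaffold (Eif4g2, Eif4g3), the RNA helicases (Eif4a1, Eif4a2) and the helicase cofactors (Eif4b, Eif4h). They were chosen by symbol, current or former, among the 19937 genes that have a probe set of their own on the array, and 13 probe sets carried these symbols. Where a gene had several, the probe set with the highest mean over the 12 arrays stood for it and the others are given beside it. All 9 genes passed the filter on dim signals and were among the 13180 genes tested. Eif4g1, another gene of the scaffold, is not among the 9.

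The cells came from 1 clone, numbered 483, of a T cell leukaemia (T-ALL) of C57BL6 background, and all groups share it. They were kept for 2 h with 100 µM 4EGI-1 or without it, and the control is called untreated in the sample labels and DMSO, the solvent, in the design text. RNA was taken from the polysomes, pooled after a sucrose gradient, and from the cytoplasm as a reference, which the titles call total RNA. This gave 4 groups of 3 arrays: cytoplasmic control, cytoplasmic 4EGI-1, polysomal control and polysomal 4EGI-1. Of the 15 T lineage markers listed, 13 were on the array and all 13 lay above the filter level, as did 2 of 5 B lineage, 3 of 6 myeloid, 2 of 3 erythroid and megakaryocyte, 4 of 6 stromal and 1 of 4 endothelial markers. The highest means of these lists lay between 6.67 and 8.48 (Pecam1), and that of the T lineage was 12.19. Nothing but the words biological replicate says how separate the cultures were, so p-values rest on how much these arrays varied, and that variation may be technical.

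As background, eIF4E grips the cap at the start of an mRNA, eIF4G joins it to the helicase eIF4A and to the ribosome-bound factor eIF3, and eIF4B and eIF4H stimulate the helicase. eIF4E is the subunit that the mTOR pathway and the eIF4E-binding proteins control, and its gene is a known target of the transcription factor MYC, which drives growth in T-ALL. An mRNA found in polysomes carries several ribosomes, so its polysomal signal depends on its level and on its loading together.

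Promoter stretches of the members were read from RefSeq (GRCm38.p6), because Eif4e, Eif4e2 and Eif4g3 were called changed in polysomal RNA with 4EGI-1. Of these, only Eif4e2 was also called in cytoplasmic RNA in the main fit. MYC is known to bind the motif CACGTG, which reads the same on both strands. Windows of 300 bases, from 250 before to 50 after an annotated start, were found for 7 of the 9 members, 11 windows in all, since a gene can have several starts. The motif was in 3 of the 11 windows, 1 each of Eif4e, Eif4a1 and Eif4h, and in 7.15% of all 32851 windows. No window of Eif4e2 or Eif4g3 held it, and the windows of each of these genes overlap, so the 11 are not separate. Binding of MYC was not tested. Each line gives 60 bases from the part of the window before the start, 5′ to 3′, with the motif in capitals. For Eif4e (chr3:138527018-138527077, plus strand), Eif4a1 (chr11:69672580-69672639, minus strand) and Eif4h (chr5:134639473-134639532, minus strand) the stretch is laid around the motif, and for Eif4e2 (chr1:87213851-87213910, plus strand) and Eif4g3 (chr4:137993395-137993454, plus strand) it ends at the first annotated start.
Eif4e: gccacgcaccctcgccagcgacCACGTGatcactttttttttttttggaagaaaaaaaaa
Eif4a1: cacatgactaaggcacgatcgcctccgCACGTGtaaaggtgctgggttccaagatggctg
Eif4h: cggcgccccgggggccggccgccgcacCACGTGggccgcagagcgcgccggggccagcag
Eif4e2: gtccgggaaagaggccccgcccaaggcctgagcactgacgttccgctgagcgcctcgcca
Eif4g3: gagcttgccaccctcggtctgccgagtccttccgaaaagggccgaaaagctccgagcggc
The motif began 228 bases before the second of 2 annotated starts of Eif4e, with a second copy at 64 bases, 189 bases before it in Eif4a1 and 96 bases before it in Eif4h.

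All values are log2 array values as deposited, and a difference of 1 is a factor of 2. Levels of different genes are not compared, because probe sets differ in brightness. RMA normalises between arrays, so a change is relative to the other genes and a change in total translation is not measured. Whether both fractions were normalised as 1 set is not given in the sources used here, and array medians were 6.45 to 6.56 in cytoplasmic and 6.40 to 6.44 in polysomal RNA. In such bulk RNA, fewer cells with a transcript and less of it per cell cannot be told apart. The cytoplasmic arrays were the noisier: the members' median standard deviation was 0.10 in cytoplasmic control and 0.11 in cytoplasmic 4EGI-1, against 0.07 and 0.05 in the polysomal groups. The adjusted p-values below come from limma fitted to the 12 arrays, with Benjamini-Hochberg adjustment over the 13180 genes and a threshold of 0.05, and each error of a change is its standard error (SE).

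With 4EGI-1, the cap-binding genes were called lower in polysomal RNA and the scaffold relative Eif4g3 was called higher there. The polysomal and cytoplasmic changes did not differ at the threshold for any of the cap-binding genes (limma, adjusted p from 0.348 to 0.742). In polysomal RNA 3 of the 9 genes fell (Eif4e, Eif4e2 and Eif4e3), against 12.1% of all genes tested, and 1 rose (Eif4g3), against 13.0%. Without polysomal control array 1, or without polysomal 4EGI-1 array 3, only Eif4e2 of the 3 passed the threshold. The changes of Eif4e and Eif4e3 stayed below 0 there, and the Eif4e3 call ended without any 1 of the 6 polysomal arrays. In the fit of all 12 arrays the Eif4e call also ended with either of its other probe sets (limma, adjusted p = 0.187 and 0.395). It ended with the mean of its probe sets as well (limma, adjusted p = 0.0792). In cytoplasmic RNA 1 of the 9 fell (Eif4e2), against 7.79% of all genes, and none rose, against 10.1%. A fit to only the 6 cytoplasmic arrays called the same gene (limma, adjusted p = 0.0271), with 2.8% of all genes lower and 5.55% higher. The median change of the 9 genes was -0.13 in cytoplasmic and -0.17 in polysomal RNA, and over all genes it was -0.03 in both. In cytoplasmic RNA 8 of the 9 changes were below 0, against 56% of all genes, and in polysomal RNA 6 were, against 57.8%. The 8 include Eif4g3, at 0.00, and Eif4e, whose sign turned in both of its other probe sets.

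**Figure D1:**
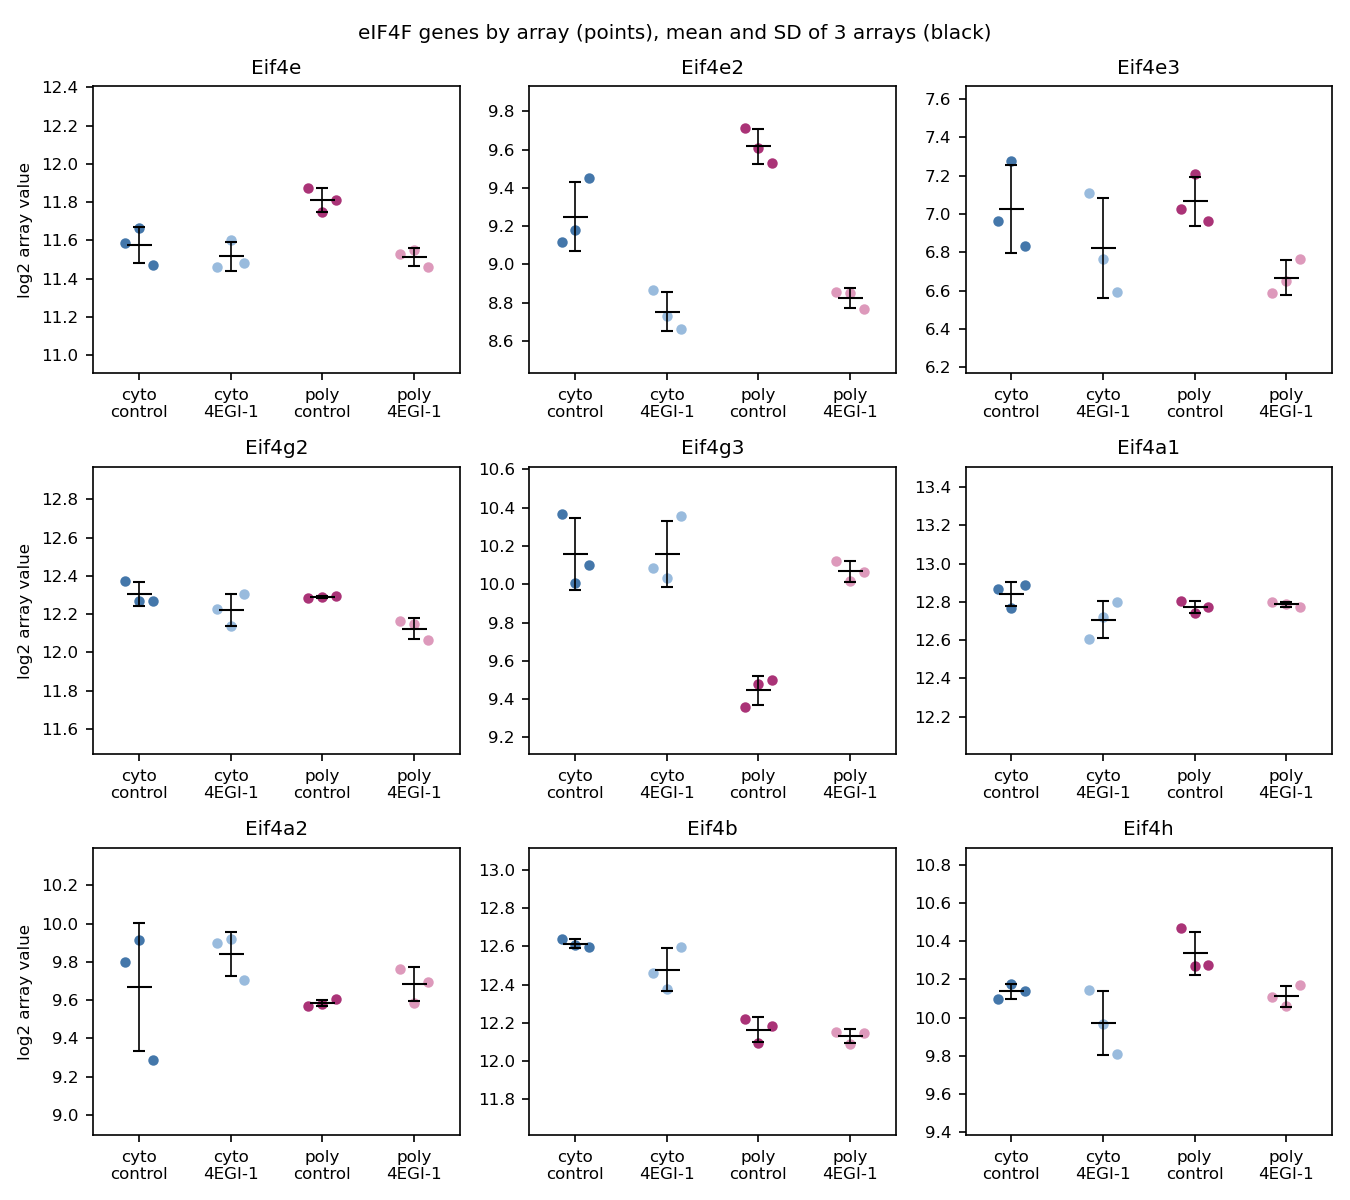
Log2 array value (vertical axes, each spanning 1.5 log2 units) of the 9 genes in each array of the 4 groups (points), with the mean and standard deviation of 3 arrays in black. Eif4e2 is lower with 4EGI-1 in both fractions, the 3 polysomal control arrays of Eif4g3 (9.36 to 9.50) lie below its 9 other arrays, and Eif4b is lower in polysomal than in cytoplasmic RNA.

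Eif4e2 encodes 4EHP, a cap-binding relative that binds eIF4G poorly and is known as a repressor of translation. It had the largest decrease of the 9 in both fractions. In cytoplasmic RNA its values were 9.12, 9.18 and 9.45 in control and 8.87, 8.73 and 8.66 with 4EGI-1. In polysomal RNA they were 9.71, 9.61 and 9.53 in control and 8.86, 8.85 and 8.77 with 4EGI-1. No treated array overlapped a control array in either fraction, and every array with 4EGI-1 lay below every array without it.

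In cytoplasmic RNA Eif4e2 fell by 0.50 ± 0.10 (SE, n = 3 arrays per group), a 1.41-fold decrease (limma, adjusted p = 0.00205). In polysomal RNA it fell by 0.79 ± 0.10, a 1.73-fold decrease (limma, adjusted p = 2.31e-05), which is below the changes of all but 0.69% of the genes tested. Both calls held in all 23 alternative settings, with changes from -0.56 to -0.32 in cytoplasmic RNA and from -0.83 to -0.74 in polysomal RNA. The polysomal change minus the cytoplasmic one was -0.30 ± 0.13 and did not pass (limma, adjusted p = 0.348). With array weights it was -0.47 and passed (limma, adjusted p = 0.0042).

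Eif4e encodes the cap-binding subunit itself. Its values were 11.59, 11.67 and 11.47 in cytoplasmic control and 11.46, 11.60 and 11.48 in cytoplasmic 4EGI-1. In polysomes they were 11.88, 11.75 and 11.81 without and 11.53, 11.55 and 11.46 with 4EGI-1. The polysomal control arrays were thus the high ones, without overlap with any other group, and the other groups overlapped one another. In polysomal RNA Eif4e fell by 0.30 ± 0.08, a 1.23-fold decrease (limma, adjusted p = 0.0108), while the cytoplasmic change was -0.06 ± 0.08 (limma, adjusted p = 0.655). The difference between these effects was -0.24 ± 0.11 and did not pass (limma, adjusted p = 0.365).

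The array carries 3 probe sets for Eif4e, and they did not agree in size or in spread. The one used has a mean of 11.61, and the others have means of 10.56 and 6.83. In the probe set with mean 10.56 the polysomal values were 11.01, 11.00 and 10.90 in control and 10.58, 10.64 and 10.71 with 4EGI-1, a change of -0.32. Its polysomal groups did not overlap either, and the change passed in a fit to only the 6 polysomal arrays (limma, adjusted p = 0.00199) but not in the fit of all 12 (limma, adjusted p = 0.187). Its cytoplasmic values were widely spread, from 9.80 to 10.58 in control and from 10.13 to 10.75 with 4EGI-1.

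The dim probe set of Eif4e, with mean 6.83, differed by -0.13 in polysomal RNA and did not pass (limma, adjusted p = 0.395). With the mean of the 3 probe sets the polysomal change was -0.25 and did not pass (limma, adjusted p = 0.0792). For the probe set used, the call ended without polysomal control array 1 (limma, adjusted p = 0.0528) or polysomal 4EGI-1 array 3 (limma, adjusted p = 0.052). RefSeq lists a pseudogene name among the synonyms of Eif4e, and which copies each probe set reads was not tested.

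**Figure D2:**
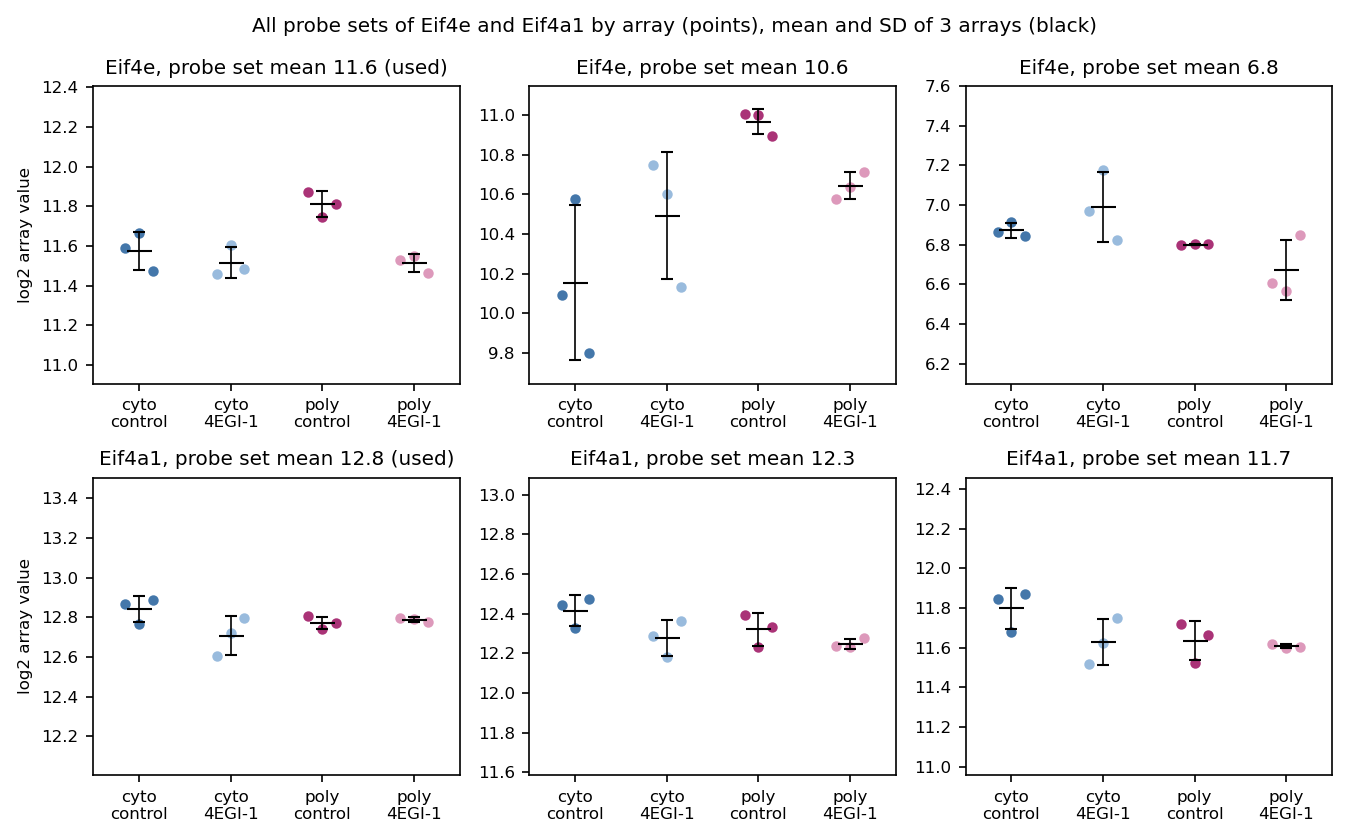
Log2 array value (vertical axes, each spanning 1.5 log2 units) of the 3 probe sets of Eif4e (top) and the 3 of Eif4a1 (bottom) in each array (points), with the mean and standard deviation of 3 arrays in black. The polysomal control and 4EGI-1 arrays are apart in the Eif4e probe sets with means 11.6 and 10.6 and overlap in the one with mean 6.8, and in all 3 Eif4a1 probe sets the polysomal control and 4EGI-1 arrays differ by less than 0.1 in their means, with the sign of the probe set used opposite to that of the others.

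Eif4e3 encodes a further cap-binding relative, and its signal was the dimmest of the 9, with a mean of 6.90 against a filter level of 6.0. Its polysomal values were 7.02, 7.21 and 6.97 in control and 6.59, 6.65 and 6.77 with 4EGI-1, without overlap. Its cytoplasmic values were 6.96, 7.28 and 6.83 in control and 7.11, 6.77 and 6.59 with 4EGI-1, with overlap. The polysomal change was -0.40 ± 0.13, a 1.32-fold decrease (limma, adjusted p = 0.0361), and the cytoplasmic change was -0.20 ± 0.13 and did not pass (limma, adjusted p = 0.325). The polysomal call ended when any of the 6 polysomal arrays was left out (limma, adjusted p from 0.0503 to 0.155) and with no filter on dim genes (limma, adjusted p = 0.0634).

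Eif4g3 encodes eIF4GII, a scaffold that binds eIF4E, eIF4A and eIF3. Its polysomal values were 9.36, 9.48 and 9.50 in control and 10.12, 10.02 and 10.06 with 4EGI-1. Its cytoplasmic values were 10.37, 10.01 and 10.10 in control and 10.08, 10.04 and 10.36 with 4EGI-1. Polysomal control was the low group, apart from the other groups, which overlapped.

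In polysomal RNA Eif4g3 rose by 0.62 ± 0.10, a 1.54-fold increase (limma, adjusted p = 0.000439), and 96.0% of the genes tested had a change no higher than this. The call held in all 23 alternative settings, with changes from 0.58 to 0.65. The cytoplasmic change was 0.00 ± 0.10 (limma, adjusted p = 0.998), with a 95% interval from -0.22 to 0.22. With array weights, which set cytoplasmic 4EGI-1 array 1 at 3.83 and cytoplasmic 4EGI-1 array 3 at 0.28, the cytoplasmic change was -0.21 and passed (limma, adjusted p = 0.0417).

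The polysomal change of Eif4g3 exceeded the cytoplasmic one by 0.62 ± 0.15 (limma, adjusted p = 0.033). It was the only one of the 9 genes to pass in this difference of effects, in which 2.31% of all genes were called higher and 0.607% lower. The call ended with centring on array medians (limma, adjusted p = 0.0625), with no filter on dim genes (limma, adjusted p = 0.0727) and without any 1 of 9 arrays (limma, adjusted p from 0.0567 to 0.105), namely cytoplasmic control array 1, cytoplasmic 4EGI-1 arrays 1 and 2 and each of the 6 polysomal arrays. Its size lay between 0.52 and 0.82 in all 22 alternatives.

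Eif4g2 encodes DAP5, a scaffold relative that lacks the eIF4E-binding site and serves translation that does not need eIF4E. Its values ran from 12.06 to 12.38 over the 12 arrays. In polysomes they were 12.29, 12.29 and 12.29 without and 12.16, 12.15 and 12.06 with 4EGI-1, without overlap. The polysomal change was -0.17 ± 0.07 and did not pass (limma, adjusted p = 0.123), and the cytoplasmic change was -0.08 ± 0.07 (limma, adjusted p = 0.505). In a fit to only the 6 polysomal arrays, which called 20.4% of all genes lower, the polysomal change passed (limma, adjusted p = 0.0475), as it did with an intensity trend (limma, adjusted p = 0.0349) and with array weights (limma, adjusted p = 0.023).

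The scaffold relatives were also compared within arrays, where the scale of the array cancels. Within each polysomal array the log2 value of Eif4g2 minus that of Eif4g3 was 2.84 ± 0.07 (SD, n = 3) in control and 2.06 ± 0.07 (SD, n = 3) with 4EGI-1, a change of -0.79. The groups did not overlap, and an exact permutation test gave p = 0.1 (two-sided; adjusted p = 0.2 over 6 such tests), which is the smallest p that 3 arrays against 3 allow. In cytoplasmic RNA the same difference changed by -0.08 (exact permutation test, p = 0.4).

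The within-array value of Eif4e minus Eif4e2 was 2.20 ± 0.08 (SD, n = 3) in control and 2.69 ± 0.01 with 4EGI-1 in polysomal RNA, and 2.33 ± 0.26 and 2.76 ± 0.15 in cytoplasmic RNA, without overlap in either (exact permutation test, p = 0.1 in each, the smallest possible; adjusted p = 0.2). These are differences of 0.49 and 0.44 between treated and control arrays.

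The helicase genes had no change that passed. Eif4a1, which encodes the main eIF4A, had values from 12.60 to 12.89 over the 12 arrays, with a cytoplasmic change of -0.13 ± 0.07 (limma, adjusted p = 0.246) and a polysomal change of 0.02 ± 0.07 (limma, adjusted p = 0.916). The 95% interval of the polysomal change ran from -0.14 to 0.17. Its other probe sets, with means of 12.32 and 11.67, differed by -0.14 and -0.17 between treatments in cytoplasmic RNA and by -0.07 and -0.03 in polysomal RNA, and none of these passed. The probe sets list much the same transcripts, and which copies of the gene each reads was not tested. With array weights the cytoplasmic change of Eif4a1 was -0.23 and passed (limma, adjusted p = 0.006).

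Eif4a2, the other cytoplasmic eIF4A, had the widest cytoplasmic control group of the 9. Its values there were 9.80, 9.91 and 9.29, against 9.90, 9.92 and 9.71 with 4EGI-1, and control array 3 was the low one. In polysomal RNA they were 9.57, 9.58 and 9.60 in control and 9.76, 9.59 and 9.70 with 4EGI-1. The cytoplasmic change was 0.17 ± 0.13 (limma, adjusted p = 0.394) and the polysomal change 0.10 ± 0.13 (limma, adjusted p = 0.65). Without cytoplasmic control array 3 the cytoplasmic change was -0.02. The within-array value of Eif4a1 minus Eif4a2 changed by -0.31 in cytoplasmic and -0.08 in polysomal RNA, with overlap in both (exact permutation test, p = 0.3 in each).

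Of the helicase cofactors, Eif4b did not pass in either fraction, with a cytoplasmic change of -0.14 ± 0.08 (limma, adjusted p = 0.256) and a polysomal change of -0.04 ± 0.08 (limma, adjusted p = 0.799). With array weights the cytoplasmic change was -0.18 and passed (limma, adjusted p = 0.03). Eif4h, the smaller cofactor, had polysomal values of 10.47, 10.27 and 10.28 in control and 10.11, 10.06 and 10.17 with 4EGI-1, without overlap. Its polysomal change was -0.23 ± 0.09 and did not pass (limma, adjusted p = 0.0865), and its cytoplasmic change was -0.16 ± 0.09 (limma, adjusted p = 0.247). In a fit to only the 6 polysomal arrays the polysomal change of Eif4h passed (limma, adjusted p = 0.0259), as it did with array weights (limma, adjusted p = 0.0259).

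**Figure D3:**
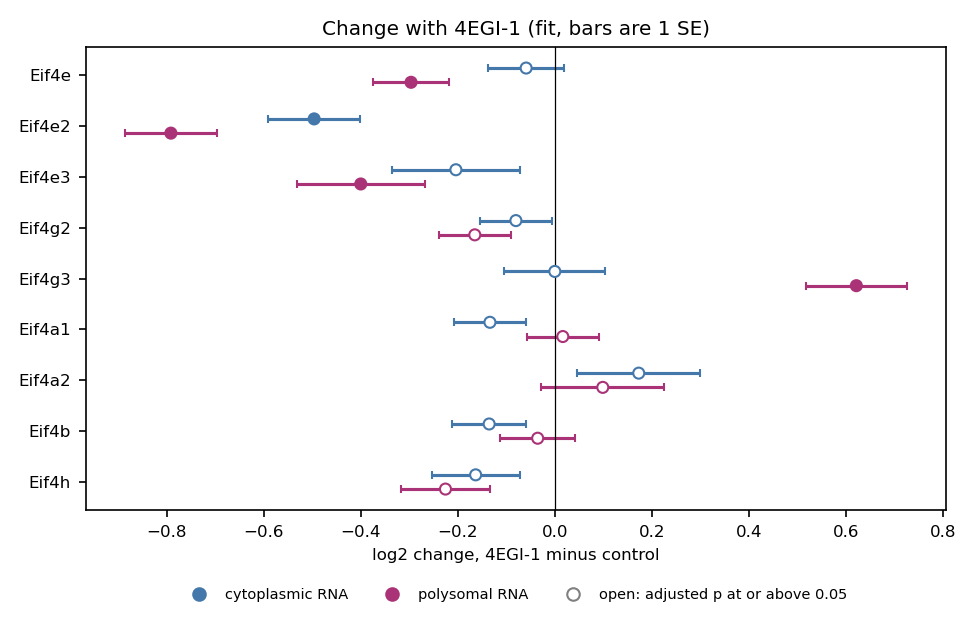
Log2 change with 4EGI-1 (horizontal axis, 4EGI-1 minus control) of the 9 genes in cytoplasmic and polysomal RNA, from the fit to 12 arrays, with bars of 1 SE. Filled points passed at an adjusted p below 0.05: Eif4e2 in both fractions, and Eif4e, Eif4e3 and Eif4g3 in polysomal RNA, and Eif4g3 is the only filled point above 0.

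In control cells, 4 of the 9 genes differed between polysomal and cytoplasmic RNA. Eif4e and Eif4e2 were higher in polysomal than in cytoplasmic RNA, 2 of the 9 against 16.7% of all genes, and Eif4g3 and Eif4b were lower, 2 of the 9 against 12.2%. With centring on array medians the shares of all genes were 20.9% higher and 7.08% lower. Eif4g3 differed by -0.71 ± 0.10 (limma, adjusted p = 0.000142), so it was 1.64-fold lower in polysomes. Eif4b differed by -0.45 ± 0.08 (limma, adjusted p = 0.000492). Both calls held in all 23 alternative settings. Eif4e2 differed by 0.37 ± 0.10 (limma, adjusted p = 0.00894) and Eif4e by 0.24 ± 0.08 (limma, adjusted p = 0.0337).

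The call of Eif4e2 ended without cytoplasmic control array 1 (limma, adjusted p = 0.0501) or polysomal control array 1 (limma, adjusted p = 0.0503). That of Eif4e ended in a fit to only the 6 control arrays (limma, adjusted p = 0.0719), with no filter (limma, adjusted p = 0.0658) and without cytoplasmic control array 1 or 3 or polysomal control array 1 or 3 (limma, adjusted p from 0.0701 to 0.128). In the Eif4e probe set with mean 10.56 the same difference was 0.81 (limma, adjusted p = 0.00199), and in the dim one it was -0.07 (limma, adjusted p = 0.631). Eif4a2 differed by -0.08 ± 0.13 and did not pass (limma, adjusted p = 0.675), and without its low cytoplasmic control array 3 it differed by -0.27 (limma, adjusted p = 0.0336). Eif4h differed by 0.20 ± 0.09 (limma, adjusted p = 0.116), and passed with array weights and with centring on array medians. The other members (Eif4e3, Eif4g2 and Eif4a1) had differences from -0.07 to 0.04 that did not pass.

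In 4EGI-1 cells 1 of the 9 genes differed between the fractions. Eif4b was lower in polysomes, against 7.15% of all genes, and none was higher, against 9.56% (with centring, 3.24% lower and 16.7% higher). Its values were 12.64, 12.61 and 12.59 in cytoplasmic control, 12.46, 12.38 and 12.60 in cytoplasmic 4EGI-1, 12.22, 12.09 and 12.18 in polysomal control and, with 4EGI-1, 12.15, 12.09 and 12.15 in polysomes. Every polysomal array lay below every cytoplasmic one. The difference in 4EGI-1 cells was -0.35 ± 0.08 (limma, adjusted p = 0.00743), and it ended as a call only with centring on array medians (limma, adjusted p = 0.0629).

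The differences called in control cells for Eif4g3, Eif4e and Eif4e2 were smaller with 4EGI-1. Eif4g3 differed by -0.09 ± 0.10 between the fractions, Eif4e by 0.00 ± 0.08 and Eif4e2 by 0.07 ± 0.10, and none of these passed. The change from control to 4EGI-1 cells is the difference of effects given above, which passed for Eif4g3 alone. These comparisons share the polysomal control arrays with the treatment comparison, so a high or low value there enters both. With array weights 4 of the 9 genes passed in 4EGI-1 cells, Eif4e3, Eif4a2 and Eif4b lower and Eif4a1 higher in polysomes, while the shares of all genes were 18% lower and 17.5% higher.

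**Figure D4:**
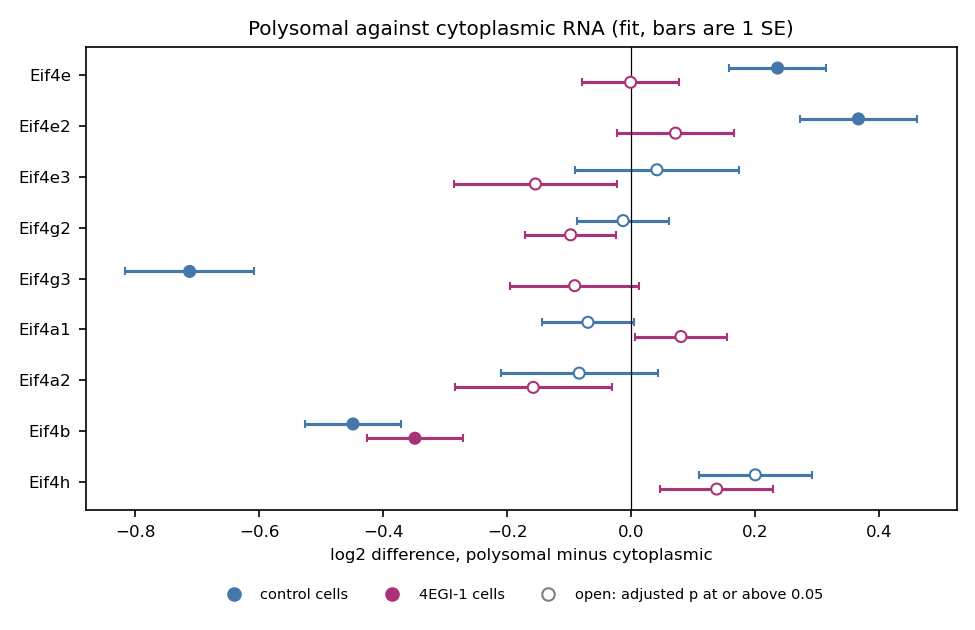
Log2 difference between polysomal and cytoplasmic RNA (horizontal axis, polysomal minus cytoplasmic) of the 9 genes in control and in 4EGI-1 cells, from the fit to 12 arrays, with bars of 1 SE and filled points where the adjusted p was below 0.05. Eif4e and Eif4e2 are on the higher and Eif4g3 on the lower side in control cells and all 3 lie near 0 in 4EGI-1 cells, while Eif4b is on the lower side in both.

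Ordered by group mean, Eif4e, Eif4e2, Eif4e3 and Eif4h were highest in polysomal control, and Eif4g2, Eif4g3, Eif4a1 and Eif4b in cytoplasmic control. Eif4a2 was highest in cytoplasmic 4EGI-1. For Eif4e3, Eif4g2, Eif4a1 and Eif4a2 no neighbouring groups in this order were apart by their arrays. For Eif4e and Eif4h the step from polysomal control to cytoplasmic control was apart, for Eif4g3 the step from polysomal 4EGI-1 to polysomal control, and for Eif4b the step from cytoplasmic 4EGI-1 to polysomal control. Eif4e2 had the widest range of group means, 0.86, and both the step from polysomal control to cytoplasmic control and the step from there to polysomal 4EGI-1 were apart. The share of all genes with groups apart was not counted, so this order only describes the members. The Eif4h step did not pass in the fit (limma, adjusted p = 0.116).

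Genes that regulate or adjoin eIF4F were listed as well. Of 20 regulators and partners, 17 were tested. In cytoplasmic RNA 1 of them fell and none rose, and in polysomal RNA 4 fell and 2 rose, with medians of -0.03 and -0.02. Of all genes 7.79% fell and 10.1% rose in cytoplasmic RNA, and 12.1% fell and 13.0% rose in polysomal RNA. The kinase gene Mknk2, whose product phosphorylates eIF4E, fell in the cytoplasm by 0.52 ± 0.10 (limma, adjusted p = 0.00179) and in polysomes by 0.55 ± 0.10 (limma, adjusted p = 0.000695). Gigyf2, which encodes the partner of 4EHP in translational repression, rose by 0.47 ± 0.09 in polysomal RNA (limma, adjusted p = 0.00105), and the poly(A)-binding protein partner gene Paip1 fell there by 0.32 ± 0.10 (limma, adjusted p = 0.021).

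Among the eIF4E-binding proteins, Eif4ebp1 rose by 0.37 ± 0.12 in polysomal RNA (limma, adjusted p = 0.0388). Its cytoplasmic change was 0.33 ± 0.12 (limma, adjusted p = 0.0788), and that of Eif4ebp2 was -0.51 ± 0.19 (limma, adjusted p = 0.0819), and neither passed. Pdcd4, whose product holds eIF4A inactive, fell by 0.31 ± 0.11 in polysomal RNA (limma, adjusted p = 0.0445). Paip2 also fell there, by 0.28 ± 0.09 (limma, adjusted p = 0.0394).

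Of 14 subunits of eIF3, the factor that ties eIF4G to the small ribosomal subunit, 11 were tested. None passed in cytoplasmic RNA, where Eif3b had the smallest p with a change of -0.22 ± 0.07 (limma, adjusted p = 0.0581). In polysomal RNA 3 rose, against 13.0% of all genes, and none fell, against 12.1%, with a median of 0.04. These were the core subunit genes Eif3c (0.76 ± 0.08) and Eif3a (0.58 ± 0.07) and the cap-binding subunit gene Eif3d (0.31 ± 0.07), with adjusted p-values (limma) from 1.08e-05 to 0.00392. Eif3c and Eif3a, like Eif4g3, also passed in the difference of effects, at 0.61 ± 0.12 and 0.45 ± 0.10 (limma, adjusted p = 0.00917 and 0.0237).

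Of 19 other initiation factors, 16 were tested. In cytoplasmic RNA Eif2s2, which encodes the beta subunit of eIF2, rose by 0.28 ± 0.09 (limma, adjusted p = 0.0427), and Eif1b fell by 0.35 ± 0.08 (limma, adjusted p = 0.00618). In polysomal RNA 1 of the 16 rose and 3 fell, against 13.0% and 12.1% of all genes, and the list was not tested as a set. Eif5b, whose product joins the ribosomal subunits, rose by 0.88 ± 0.09 (limma, adjusted p = 5.95e-06), Eif1b fell by 0.57 ± 0.08 (limma, adjusted p = 7.72e-05) and Denr, a reinitiation factor gene, fell by 0.36 ± 0.10 (limma, adjusted p = 0.0172). Eif1ax, the gene of the scanning factor eIF1A, fell by 0.25 ± 0.08 (limma, adjusted p = 0.027). In the difference of effects Eif5b passed at 0.74 (limma, adjusted p = 0.0047), and so did Gigyf2 of the regulators at 0.50 (limma, adjusted p = 0.0452). Medians of this list were 0.02 in cytoplasmic and -0.03 in polysomal RNA.

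As a description, the genes whose log2 values over the 12 arrays ran most like those of each member were listed by Pearson's r, where the arrays fall into 4 groups and share their scale. For Eif4g3 they were Wdr11 (0.986), Cpt1a (0.980) and Champ1 (0.979), and for Eif4e2 they were Stk39 (0.983), Btbd1 (0.977) and Purb (0.977). For Eif4b they were the ribosomal protein gene Rpl12 (0.980), Arpc1a (0.971) and Csnk1g2 (0.970), and for Eif4e they were Klhl2 (0.935), Dnajc21 (0.933) and Atp11b (0.931). For Eif4h they were Ap3m1 (0.952), Nme7 (0.946) and Rbm45 (0.938), and for Eif4g2 they were Ankrd10 (0.944), Gnpat (0.935) and Lrp8 (0.932). The highest value was 0.930 for Eif4a2 (Atp2b1), 0.905 for Eif4e3 (Art4) and 0.902 for Eif4a1 (Mri1).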

How the data were processed

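RNA was hybridised to single-colour arrays that cover whole transcripts, and the authors deposited 1 log2 value per probe set and array, made with RMA per the submitters' processing notes. Not given in the sources used here are the RMA version, the genome build and whether all arrays were normalised as 1 set. The 34760 probe sets took their symbols from the platform annotation, which can be old: 21640 had 1 symbol, 1321 several and 11799 none. Symbols were updated through the Entrez number with RefSeq (GRCm38.p6), and no probe set with several symbols held a member.

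Each gene was represented by its probe set with the highest mean, and genes whose mean lay under the 40th percentile over probe sets (log2 6.0) were left out. Group means were fitted with limma 3.58.1 in R 4.3.3 (lmFit, eBayes without a trend) over 12 arrays, with Benjamini-Hochberg adjustment at 0.05. The fit was tested on simulated data with the same spread in all 12 arrays, so the unequal spread of the fractions was not covered. The number of arrays limits the precision. Within-array differences were compared by exact permutation tests. The text names all 9 members, up to 3 genes with the smallest p per pathway list and treatment comparison, and the 3 genes most alike to each member by Pearson's r over the 12 arrays. Predicted symbols, microRNAs and small nucleolar RNAs were left out of the last. Paip2, Pdcd4, Eif1ax and the polysomal value of Eif4ebp1 were added after their values were seen, so that every call in these lists is named. The members and lists were chosen with earlier results of these data known, and the promoter motif was chosen after the changes had been seen. Alternatives covered the fit, normalization, filter, probe sets, replicate number and single arrays. Several of them, such as the filters or leaving out an array of another group, leave the size of a change as it was. They alter only its error and p-value, so counts of settings in which a call held are not counts of separate checks. Probe set replacements for Eif4e and Eif4a1 were added after seeing the data. Of the 9 small nucleolar RNAs that RefSeq places inside members, 0 matched a single-gene probe set by symbol.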

Additional observations from a re-analysis of the deposited data

Results flagged for a closer look

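The effect of 4EGI-1 on Eif4g3 passed the test of a difference between the fractions when all 12 arrays were fitted. The polysomal change minus the cytoplasmic change was 0.62 ± 0.15 on the log2 scale (limma, adjusted p = 0.033, n = 3 arrays per group). In polysomal RNA all 3 treated arrays lay above all 3 control arrays, and in cytoplasmic RNA the arrays overlapped. The call held in 11 of 22 alternative settings, and in 3 of the 12 of them that leave out 1 array.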

How the results depend on the processing

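Calls that ended under an alternative stand beside their results above, and no cause of such a change was tested. Array weights moved the number of the 9 genes passing to 4 with 4EGI-1 in cytoplasmic RNA, to 4 in the difference of effects and to 4 between the fractions in 4EGI-1 cells (1 in each otherwise), and raised the shares of all genes as well, to 21.9% higher and 20.2% lower, 8.7% and 12.8%, and 17.5% and 18%. With 4EGI-1 in polysomal RNA they gave 6 in place of 4 (18.3% of all genes higher and 20.9% lower), and the fit to only the 6 polysomal arrays gave 6 too (17.8% and 20.4%). Centring on array medians gave 0 in the difference of effects and 0 between the fractions in 4EGI-1 cells. No filter on dim genes gave 0 in the difference of effects, and the dim Eif4e probe set gave 2 between the fractions in 4EGI-1 cells. With each array left out in turn the number ran from 2 to 4 with 4EGI-1 in polysomal RNA, from 0 to 1 in the difference of effects and from 2 to 4 between the fractions in control cells. Signs turned only for differences that had not passed, except for Eif4e between the fractions in control cells, -0.072 in its dim probe set. The cytoplasmic change of Eif4e was 0.13 with the mean of its probe sets, 0.34 in the one with mean 10.56 and 0.12 in the dim one. That of Eif4e3 was 0.049 with array weights, and that of Eif4g3 was 0.014 under quantile normalization of all arrays and 0.015 within fractions. In polysomal RNA Eif4a1 changed by -0.028 with the mean of its probe sets and by -0.028 and -0.073 in the others, and Eif4b by 0.029 and 0.023 under the 2 quantile normalizations. Between the fractions in control cells, quantile normalization and centring gave 0.041 and 0.064 for Eif4g2 and 0.0045 and 0.0072 for Eif4a1. In 4EGI-1 cells Eif4e differed by 0.031 with array weights, 0.097 with centring and 0.15 in the probe set with mean 10.56, Eif4e2 by -0.019 with array weights, Eif4g3 by 0.0065 with centring, and Eif4a1 by -0.022 and -0.029 in its other probe sets. With each array left out, ranges that crossed 0 were -0.10 to 0.10 (Eif4g3) and -0.017 to 0.30 (Eif4a2) in cytoplasmic RNA, -0.00011 to 0.032 (Eif4a1) in polysomal RNA, and -0.20 to 0.12 (Eif4a2) and -0.14 to 0.023 (Eif4h) in the difference of effects. Between the fractions they were -0.054 to 0.17 (Eif4e3), -0.031 to 0.023 (Eif4g2) and -0.27 to 0.039 (Eif4a2) in control cells, and -0.029 to 0.043 (Eif4e) and -0.15 to 0.0078 (Eif4g3) in 4EGI-1 cells. Without cytoplasmic control array 3 the cytoplasmic Eif4a2 change was -0.017. The labels do not say what a replicate number shares. Deviations of same-numbered arrays from their group means correlated at -0.22 to 0.56 over 18 pairs, and those of different number at -0.70 to 0.41 over 36. Between cytoplasmic control and cytoplasmic 4EGI-1 the correlation was -0.22 for number 1, 0.56 for number 2 and 0.52 for number 3. The main fit did not pair the arrays, and whether a number marks a shared culture was not tested. With the replicate block, as a fixed factor or as a random block for the culture, 1, 4, 1, 4 and 1 of the 9 genes passed in the 5 comparisons, in order cytoplasmic, polysomal, difference of effects, control cells and 4EGI-1 cells, as without it. The number of arrays limits the precision, and Eif4e3 lies nearest to the dim genes.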
